A study of Caenorhabditis elegans with 6 samples.

Results

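The transcripts described here are 24 nuclear tRNAs of *Caenorhabditis elegans*. They were sequenced in worms fed the empty RNAi vector and had estimated counts at or near 0 after RNAi against *rpc-1*. That gene encodes the largest subunit of the polymerase Pol III. The 24 tRNAs were chosen from the counts themselves. A tRNA was included when its 3 control counts summed to 100 or more and each of the 3 RNAi counts was 3 or fewer, and these are called lost tRNAs below, which says only that they met this rule. The rule found 24 of the 227 nuclear tRNAs and tRNA pseudogenes in the table, and all 24 were tRNAs. Among nuclear tRNAs with a control sum of 100 or more, 24 of 94 met it (25.5%), against 0 of 8 pseudogenes and 8 of 624 transcripts that were not nuclear tRNAs (1.28%). Over all 718 transcripts with that control sum the share was 4.46%. Because the counts of both groups chose the members, their own RNAi to control differences are given as a description, with no test.

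Pol III transcribes tRNA genes from a promoter that lies inside the gene, where the factor TFIIIC binds and brings TFIIIB and the polymerase. Each tRNA carries the amino acid that names its isotype and reads codons with its anticodon, so that tRNAs of different sequence with a shared anticodon (isodecoders) and identical copies of a gene at several places serve the same codons. The initiator methionine tRNA starts proteins, and all other tRNAs extend them.

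Whole worms of both groups were wild type (Bristol N2) and were moved at the last larval stage (L4) to *Escherichia coli* HT115 on plates with FUdR, which blocks production of progeny, and were collected on day 2 of adulthood. The bacteria carried the *rpc-1* RNAi clone (rpc-1 RNAi, 3 samples) or the empty vector (vector control, 3 samples). RNAi by feeding is meant to reduce the target in part, and *rpc-1* mRNA is too long for this table, so neither the knockdown nor mRNA markers of worm tissues were analysed here. Nothing in the labels says that the samples of a group came from separate cultures, so p-values measure only the spread between these samples, which may be technical.

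Short RNA was size selected and demethylated before sequencing, because modified bases of tRNAs stop reverse transcription. The values are estimated counts, the number of reads that the software Salmon assigned to each transcript. The table held 19386526 to 21685824 counts in rpc-1 RNAi samples and 9362216 to 18464616 in vector controls, and vector control 2, with 9362216, was the shallowest. It listed 143 of the 612 annotated nuclear tRNA genes. A tRNA entry may therefore hold reads of copies that the table does not list, which was not tested, and counts of single genes among near-identical copies are uncertain. In whole worms, fewer cells of a type and less RNA per cell cannot be told apart.

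In rpc-1 RNAi samples the lost tRNAs together held 4 counts, and in vector controls 1404035. Of the 24, 21 had 0 counts in every rpc-1 RNAi sample, and the other 3 had at most 1 count in any of them. The control counts were uneven: the most abundant lost tRNA, F14B4.t1, held 44.2% of the control counts of all 24, and the first 5 held 86.9%. Arginine tRNAs, 6 of the 24, held 67.6%.

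**Figure D1:**
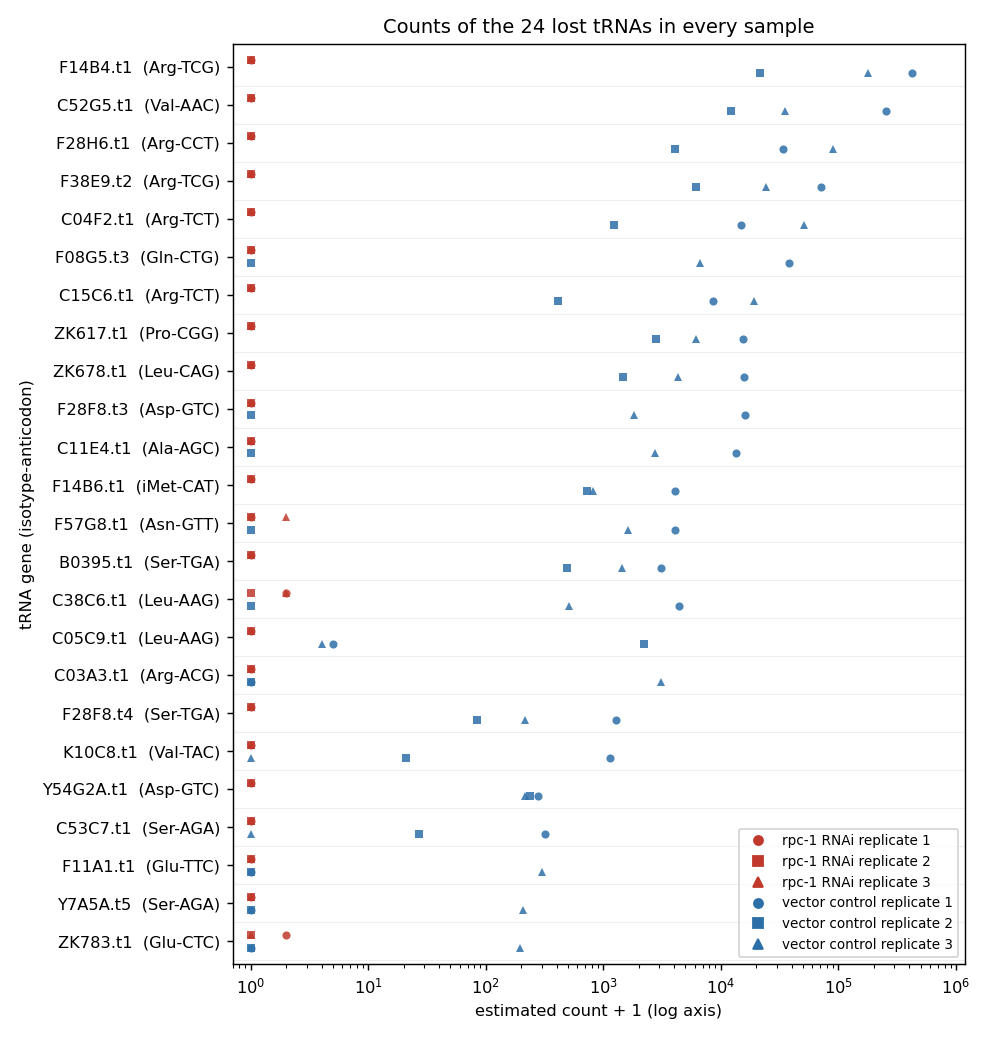
Estimated count plus 1 (horizontal log axis) of each lost tRNA in rpc-1 RNAi samples (red, upper) and vector controls (blue, lower), ordered by mean normalized control count; marker shapes give the replicate number. Red points lie at 0 or 1 count in each of the 24, and 11 of the 24 also have a control sample at 0.

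The lost arginine tRNAs carried 4 different anticodons, and those with TCG (codon CGA) led. F14B4.t1 (tRNA-Arg-TCG-2-1, WBcel235 chromosome I, 9267122 to 9267194, plus strand) had 0 counts in each rpc-1 RNAi sample, against 419488, 21367 and 179917 in vector controls 1, 2 and 3. F38E9.t2 (tRNA-Arg-TCG-4-1, X, 16461477 to 16461549, in an intron of *nas-39*) likewise had 0 in each rpc-1 RNAi sample, against 70496, 6201 and 24418 in the controls. Both were present in every control and highest in control 1. Since a fold against 0 has no upper end, folds are given against a floor of 3 counts per RNAi library, which averaged 2.33 normalized counts (counts divided by DESeq2 size factors). On that scale F14B4.t1 was at least 87623-fold lower in rpc-1 RNAi, and F38E9.t2 at least 14707-fold lower. Without vector control 1 the bounds were 44624-fold and 7471-fold. These bounds concern estimated counts only. With a northern blot probe to F14B4.t1, the study reported a substantial and reproducible drop, and its text gives no fold.

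The other arginine tRNAs had their highest counts in vector control 3. F28H6.t1 (tRNA-Arg-CCT-1-2, codon AGG, X, 14115691 to 14115763) had 0 counts in each rpc-1 RNAi sample, against 33855, 4073 and 89936 in vector controls. C04F2.t1 (tRNA-Arg-TCT-2-3, codon AGA, V, 7506395 to 7506467) had 0 in each rpc-1 RNAi sample, against 14956, 1220 and 51145 in vector controls. C15C6.t1 (tRNA-Arg-TCT-1-1, I, 12198603 to 12198675) had 0 in each rpc-1 RNAi sample, against 8579, 414 and 19265 in vector controls. Among the lost tRNAs with more than 3 counts in every control, these 3, with anticodons TCT and CCT, were the ones highest in control 3 after normalization, whereas 8 were highest in control 1 and 1 in control 2. The last arginine tRNA, C03A3.t1 (tRNA-Arg-ACG-3-10, X, 11252590 to 11252662), had 0 in each rpc-1 RNAi sample, against 0, 0 and 3119 in vector controls, so that control 3 alone put it in the group.

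Among valine tRNAs, C52G5.t1 (tRNA-Val-AAC-2-11, X, 12843688 to 12843760, in an intron of C52G5.2) ranked next to F14B4.t1. It had 0 counts in each rpc-1 RNAi sample, against 256068, 12176 and 35185 in vector controls, and was at least 43431-fold lower (12155-fold without vector control 1). Per base of gene length, its mean control level was 1385 normalized counts, against 2795 for F14B4.t1 and 0.769 for Y7A5A.t5, the lowest per base of the 24. K10C8.t1 (tRNA-Val-TAC-1-1, V, 12683351 to 12683423) had 0 in each rpc-1 RNAi sample, against 1131, 20 and 0 in vector controls, so it overlapped the RNAi samples in control 3.

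The 3 lost leucine tRNAs differed in which control held them. ZK678.t1 (tRNA-Leu-CAG-1-2, codon CUG, X, 15742050 to 15742133) had 0 counts in each rpc-1 RNAi sample, against 15678, 1458 and 4320 in vector controls. C38C6.t1 (tRNA-Leu-AAG-1-1, II, 14635335 to 14635416) had 1, 0 and 1 in rpc-1 RNAi samples, against 4403, 0 and 507 in vector controls. C05C9.t1 (tRNA-Leu-AAG-3-8, X, 11163358 to 11163439) had 0 in each rpc-1 RNAi sample, against 4, 2219 and 3 in vector controls. ZK678.t1 was present in every control, C38C6.t1 was at 0 in control 2, and C05C9.t1 was abundant in control 2 only.

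The tRNAs for glutamine, proline and aspartate also included abundant members. F08G5.t3 (tRNA-Gln-CTG-2-2, codon CAG, IV, 12416942 to 12417013) had 0 counts in each rpc-1 RNAi sample, against 37661, 0 and 6602 in vector controls. ZK617.t1 (tRNA-Pro-CGG-1-3, codon CCG, IV, 12005598 to 12005669), in an intron of *unc-22*, the gene for the muscle protein twitchin, had 0 in each rpc-1 RNAi sample, against 15413, 2805 and 6184 in vector controls. Of these, ZK617.t1 did not overlap between groups, and the glutamine tRNA overlapped through control 2. F28F8.t3 (tRNA-Asp-GTC-2-8, V, 15551799 to 15551870) had 0 in each rpc-1 RNAi sample, against 16071, 0 and 1829 in vector controls. Y54G2A.t1 (tRNA-Asp-GTC-1-1, IV, 2800099 to 2800170) had 0 in each rpc-1 RNAi sample, against 278, 236 and 215 in vector controls. Y54G2A.t1 was the lost tRNA with the most even controls in raw counts and was the only one to overlap an annotated exon, of Y54G2A.10 on the same strand.

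The alanine and asparagine tRNAs were at 0 in control 2. C11E4.t1 (tRNA-Ala-AGC-1-14, X, 9622824 to 9622895) had 0 counts in each rpc-1 RNAi sample, against 13401, 0 and 2759 in vector controls. F57G8.t1 (tRNA-Asn-GTT-1-8, V, 16338548 to 16338620) had 0, 0 and 1 in rpc-1 RNAi samples, against 4108, 0 and 1605 in vector controls. The initiator methionine tRNA F14B6.t1 (tRNA-iMet-CAT-1-3, I, 12229309 to 12229380) had 0 in each rpc-1 RNAi sample, against 4084, 721 and 818 in vector controls, with no overlap. It was the listed initiator tRNA with a control sum of 100 or more.

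Serine gave 4 lost tRNAs and glutamate 2, all less abundant. B0395.t1 (tRNA-Ser-TGA-2-2, X, 16042608 to 16042689) had 0 counts in each rpc-1 RNAi sample, against 3092, 485 and 1434 in vector controls. F28F8.t4 (tRNA-Ser-TGA-5-1, V, 15547875 to 15547956) had 0 in each rpc-1 RNAi sample, against 1274, 83 and 214 in vector controls. Both were highest in control 1 and absent from no control. C53C7.t1 (tRNA-Ser-AGA-2-11, X, 13046578 to 13046659) had 0 in each rpc-1 RNAi sample, against 316, 26 and 0 in vector controls. Y7A5A.t5 (tRNA-Ser-AGA-4-1, X, 15770009 to 15770090) had 0 in each rpc-1 RNAi sample, against 0, 0 and 206 in vector controls. In these the control counts overlapped with the RNAi samples. F11A1.t1 (tRNA-Glu-TTC-1-13, X, 10667593 to 10667664) had 0 in each rpc-1 RNAi sample, against 0, 0 and 298 in vector controls. ZK783.t1 (tRNA-Glu-CTC-2-1, III, 7642158 to 7642229) had 1, 0 and 0 in rpc-1 RNAi samples, against 0, 0 and 196 in vector controls. Both glutamate tRNAs were seen in control 3 alone.

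The vector controls thus differed widely for the same tRNA. Of the 24 lost tRNAs, 12 had more than 3 counts in all 3 controls, 8 in 2 controls and 4 in 1 control. Control 2 had 3 or fewer counts for 9 of them, control 1 for 4 and control 3 for 3. For the 12 present throughout, the highest normalized control value was a median of 6.45 times the lowest (range 2.39 to 21.4), against a median of 3.08 times (range 1.05 to 61.7) for the 65 other nuclear tRNAs with more than 3 counts in every control. No nuclear tRNA outside the lost group had 3 or fewer counts in one control and 1000 or more in another, whereas 8 of the 24 did. Across rpc-1 RNAi samples, 1 nuclear tRNA showed such a gap. The lower bound of the fold was a median of 827 over the 24, and at least 134 for each of the 12 present in every control. Without vector control 1 these were 517 and 77.8. The median was 1089 without control 2 and 1053 without control 3. Bounds of some single tRNAs rested on 1 control. For the 4 tRNAs seen in control 3 alone, no bound remained without that control. The bound of C05C9.t1 was 1.42 without control 2, and that of K10C8.t1 was 8.57 without control 1.

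The lost tRNAs held a large part of the nuclear tRNA counts in every vector control. They made up 0.000924% (2 of 216461, 95% Wilson interval 0.000253 to 0.00337%), 0% (0 of 98670, 0 to 0.00389%) and 0.00262% (2 of 76224, 0.00072 to 0.00957%) of nuclear tRNA counts in rpc-1 RNAi samples. In vector controls 1, 2 and 3 they made up 51.5% (51.4 to 51.6%), 42.6% (42.3 to 42.9%) and 64.7% (64.5 to 64.8%). The means were 0.00118 ± 0.00133% in rpc-1 RNAi and 52.9 ± 11.1% in vector controls (SD, n = 3 each). With ncRNAs antisense to tRNA genes added to the denominator, the control mean was 15.1 ± 7.98% (SD, n = 3). The intervals cover counting error only. Of all counts in the table, the lost tRNAs held 2.66 ± 2.27% in vector controls (SD, n = 3), with 5.08% in control 1 and 0.571% in control 2.

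**Figure D2:**
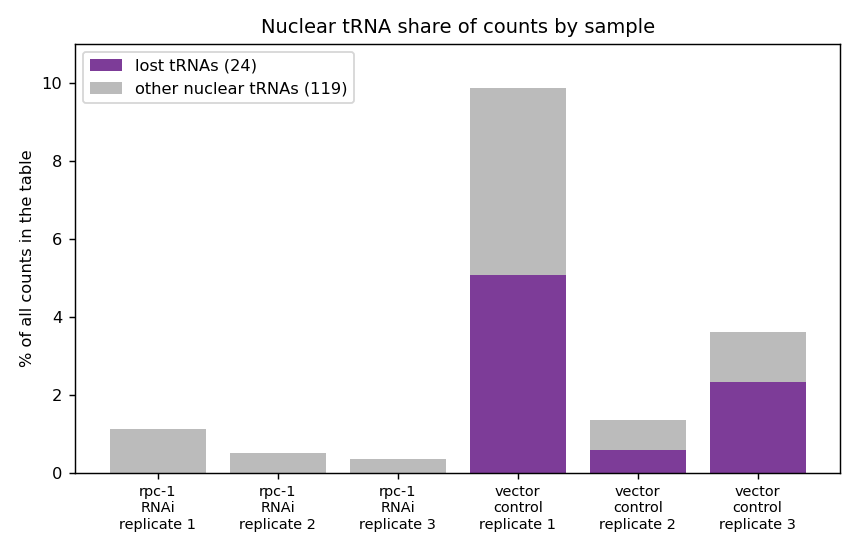
Percent of all counts in the table (vertical axis, from 0) held by the 24 lost tRNAs (purple) and by the 119 other nuclear tRNAs (grey), with 1 stacked bar per sample and rpc-1 RNAi on the left. The purple part reaches 0.571 to 5.08% in vector controls and is not visible in rpc-1 RNAi samples, while the grey part spans 0.351 to 1.12% in rpc-1 RNAi and 0.771 to 4.79% in vector controls.

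The 119 other nuclear tRNAs held 1.12, 0.493 and 0.351% of all counts in rpc-1 RNAi samples, against 4.79, 0.771 and 1.27% in vector controls. These groups overlapped, since RNAi sample 1 lay above control 2. Other Pol III classes were also tested, without U6 RNA and the snoRNAs that the study counts as Pol III products. The classes used (5S rRNA, 7SL RNA, RNase P and MRP RNA, Y RNA) gave 10 transcripts with an adjusted p. DESeq2's Wald test called 0 of them at an adjusted p under 0.10, 1 had an unadjusted p under 0.05, and edgeR called 0. Over all 1083 transcripts tested by DESeq2, 4.16% were called lower in rpc-1 RNAi and 3.14% higher (7.29% in either direction), and over the transcripts that edgeR kept the shares were 3.77% lower and 3.39% higher. With the replicate number as a block, DESeq2 called 1 of the 10 lower and 1 higher. That fit called 14.9% of all transcripts lower and 14.1% higher. Without the block, DESeq2 called 1 of the 10 higher when rpc-1 RNAi sample 1 or vector control 2 was left out. It also called 1 higher with a minimum mean count of 10 and with total-count size factors. The same held for size factors that leave out tRNAs, tRNA pseudogenes and these classes, and for edgeR with the block. Shares over all transcripts are not given for these other fits, so their counts are a description.

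The 24 lost tRNAs covered 11 isotypes and 18 anticodons. How far an anticodon's counts fell with them depended on the other tRNAs listed for it. Lost tRNAs held over 90% of the control counts of 5 anticodons: TCG for arginine (97.4% on average over the 3 controls), AAC for valine (98.7%), CCT for arginine (99.7%), CAT of the initiator, where the elongator methionine tRNA shares the letters (almost all), and CGG for proline, with no other listed tRNA. They held under 50% of 10 others, and 3.03% of serine AGA.

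For arginine CCT, all listed tRNAs together averaged 44.1 ± 21.7 normalized counts in rpc-1 RNAi and 41143 ± 37923 in vector controls (SD, n = 3 each). The other tRNA with this anticodon, Y102E9.t1, had 49, 31 and 94 counts in rpc-1 RNAi samples, against 38, 26 and 49 in vector controls, and overlapped between groups. For arginine TCG, the 3 other listed tRNAs summed to 8557, 4565 and 4334 counts in rpc-1 RNAi samples, against 12926, 1114 and 2473 in vector controls. They overlapped too, and with the lost tRNAs included the rpc-1 RNAi total was 1.90% of the control total. In all, totals in rpc-1 RNAi were under 10% of the control total for 10 of the 18 anticodons and over 100% for 0. Among the 10, the totals of alanine AGC, asparagine GTT and glutamate TTC still overlapped between groups. The control total of glutamate TTC was 113 ± 190 normalized counts (SD, n = 3). All anticodon totals contain the lost tRNAs, so they are a description.

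**Figure D3:**
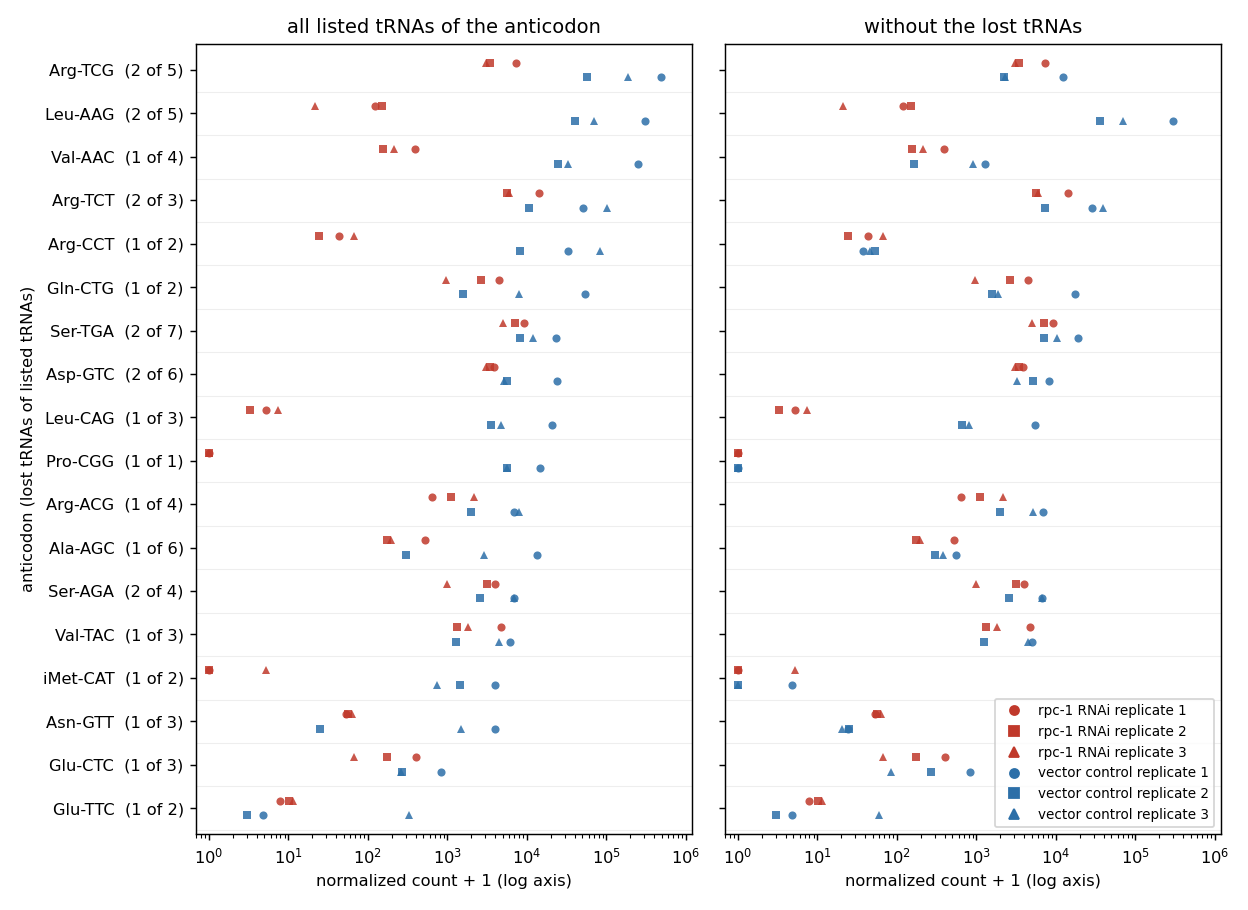
Normalized count plus 1 (horizontal log axes) summed over all listed tRNAs of each of the 18 anticodons (left) and over those that were not lost (right), with rpc-1 RNAi in red above vector control in blue and marker shapes for replicates. On the right the 2 groups overlap for 14 of the 17 anticodons with another listed tRNA. Leucine AAG and CAG are lower and asparagine GTT higher in rpc-1 RNAi without overlap, as are 8.22% and 10.6% of all single transcripts tested.

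Apart from the lost tRNAs, 41 listed tRNAs shared an anticodon with them, and 39 had an adjusted p. Their median log2 fold change was -0.60, against 0.0028 over all transcripts tested. By DESeq2, 4 were lower and 2 higher in rpc-1 RNAi (adjusted p under 0.10), against 4.16% and 3.14% of all transcripts tested. Leaving out the lost tRNAs removes the deepest falls from this count. tRNAs of other anticodons gave 4 lower and 7 higher of 68, with a median of -0.36, and 19 lower and 10 higher with the replicate block. Their lower count was 16 without rpc-1 RNAi sample 1. For the 39 tRNAs of shared anticodons the block gave 10 lower and 8 higher, against 14.9% lower and 14.1% higher over all transcripts in that fit. The lower count was 7 without rpc-1 RNAi sample 1 or without vector control 2. The higher count was 4 without rpc-1 RNAi sample 1, vector control 1 or vector control 2, and 1 without rpc-1 RNAi sample 3.

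Of the 5 other listed tRNAs with leucine AAG or CAG, 2 were called lower, and the remaining 3 had 10 or fewer counts in every sample and were not called. C17D12.t3 (anticodon AAG, I, 11585370 to 11585451, in an intron of *spe-9*) had 130, 188 and 21 counts in rpc-1 RNAi samples, against 309768, 18064 and 76324 in vector controls. Its log2 fold change was -10.55 ± 1.05 (SE; DESeq2 adjusted p = 7.00e-22). C53C7.t3 (anticodon CAG, X, 13038960 to 13039043) had 4, 0 and 3 counts in rpc-1 RNAi samples, against 5614, 332 and 871 in vector controls. Its log2 fold change was -10.29 ± 1.21 (SE; DESeq2 adjusted p = 1.04e-15). In edgeR the adjusted p was 0.0069 for C17D12.t3 and 0.0076 for C53C7.t3. With C53C7.t3, which missed the rule by 1 count, and ZK678.t1, leucine CAG was at 0.0449% of its control total in rpc-1 RNAi. Neither tRNA overlapped between groups. Without vector control 1 the log2 fold changes were -9.20 for C17D12.t3 and -8.66 for C53C7.t3, and without rpc-1 RNAi sample 1 that of C53C7.t3 was -11.07.

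The tRNAs for arginine ACG went both ways. F42G10.t1 (X, 10018425 to 10018497) had 0, 0 and 21 counts in rpc-1 RNAi samples, against 5951, 933 and 2667 in vector controls (log2 fold change -9.38 ± 1.36 SE, DESeq2 adjusted p = 2.26e-10). All of its RNAi counts came from sample 3, and without that sample the fitted change was -14.46, which is then set against 0 counts. It was -8.79 without vector control 1 and -12.70 with the replicate block. The DESeq2 adjusted p was 0.0142 to 0.0296 without any 1 control. On all samples edgeR gave an adjusted p of 0.0186. K01A12.t1 (X, 8623603 to 8623675) had 695, 1172 and 2096 counts in rpc-1 RNAi samples, against 56, 49 and 80 in vector controls. It was higher in every rpc-1 RNAi sample, and its log2 fold change was 3.73 (SE 0.70, DESeq2 adjusted p = 3.05e-06, edgeR adjusted p = 0.0090).

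K11H3.t1 (serine AGA, III, 9862022 to 9862103) was lower at 159, 494 and 63 counts in rpc-1 RNAi samples, against 2489, 517 and 1077 in vector controls. Its log2 fold change was -2.99 ± 0.91 (SE; DESeq2 adjusted p = 0.0169), while edgeR gave an adjusted p of 0.126, of 0.0045 with no filter on low counts and of 0.0505 with the replicate block. Without rpc-1 RNAi sample 2, its highest, the log2 fold change was -4.04. ZK154.t1 (asparagine GTT, X, 7773190 to 7773262) had 20, 30 and 38 counts in rpc-1 RNAi samples, against 2, 1 and 0 in vector controls, and averaged 22.3 ± 4.96 normalized counts in rpc-1 RNAi and 1.31 ± 1.13 in vector controls (SD, n = 3 each). It was called higher (DESeq2 adjusted p = 0.0186) and lost the call without rpc-1 RNAi sample 3.

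Some features that the rule did not use were counted in the lost tRNAs and in the 70 other nuclear tRNAs with a control sum of 100 or more. All 24 lost tRNAs were in the high-confidence set of the tRNA database GtRNAdb, as were 60 of the 70 others (85.7%). None of the 24 carried an intron, against 9 of 70 (12.9%). In 15 of the 24 (62.5%) the last number of the gene symbol was above 1, against 16 of 70 (22.9%). GtRNAdb uses that number to index genes with the same mature sequence. A gene with index 1 may have copies too, so these shares do not count the tRNAs with identical copies. Genes lay inside an intron of a protein-coding gene in 12 of 24 and 28 of 70, and on chromosome X in 11 of 24 (45.8%) and 36 of 70 (51.4%). By isotype, the lost tRNAs were 6 of 15 for arginine, 4 of 15 for serine, 3 of 8 for leucine and 2 of 7 for valine. They were 2 of 5 for aspartate, 2 of 3 for glutamate, 1 of 7 for alanine, 1 of 6 for proline and 1 of 3 for glutamine. Asparagine and the initiator had 1 of 1 each. Among isotypes with none lost, glycine and tyrosine had the most tRNAs, with 0 of 5 each. No test was run on these counts.

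Many tRNA genes have an annotated ncRNA on the opposite strand, and 16 of the 24 lost tRNAs had one in the table that overlapped the tRNA by at least 40 bases. The study names the TruSeq Nano kit for its libraries, and the sources used here do not state that reads were assigned by strand. Without strand, reads of a tRNA and of the ncRNA opposite it cannot be told apart. At these genes, 0 counts of a tRNA therefore need not mean that its RNA was absent. At 14 of the 16 genes the opposite ncRNA had more than 3 counts in every rpc-1 RNAi sample, although the tRNA was at 0 or 1. By DESeq2, 1 of 15 with an adjusted p was lower and 0 were higher (median log2 fold change -0.45), against 4.16% and 3.14% over all transcripts. At an unadjusted p under 0.05, 2 were lower and 0 higher, and edgeR called 1 lower and 0 higher. With the replicate block, 4 were lower and 2 higher, against 14.9% and 14.1% of all transcripts in that fit. The lower count was 2 without rpc-1 RNAi sample 1 and 0 without rpc-1 RNAi sample 2 or 3, and the higher count was 1 without vector control 1.

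F28H6.9, opposite the arginine tRNA F28H6.t1, had the largest mean over both groups, with 18696, 20264 and 20580 counts in rpc-1 RNAi samples, against 11772, 5897 and 18118 in vector controls. Its log2 fold change was 0.21 ± 0.59 (SE; DESeq2 adjusted p = 0.990). F57G8.12, opposite the asparagine tRNA, had 5606, 2803 and 3330 counts in rpc-1 RNAi samples, against 15770, 6725 and 9054 in vector controls. It was the ncRNA called lower, at -1.99 ± 0.69 (SE; DESeq2 adjusted p = 0.0558), and the groups did not overlap after normalization. In all, 3 of the 16 were lower and 1 higher without overlap, against 8.22% and 10.6% of all transcripts tested. The others were ZK783.8 and ZK678.11 (lower) and C15C6.5 (higher), named after their values were seen, with DESeq2 adjusted p of 0.737, 0.863 and 0.488. All of these were called with the replicate block (DESeq2 adjusted p = 2.69e-05, 0.0141 and 0.0239). That fit called 14.9% of all transcripts lower and 14.1% higher. Together the 16 ncRNAs held 0.309 ± 0.0933% of all counts in rpc-1 RNAi and 0.285 ± 0.0528% in vector controls (SD, n = 3 each). The difference of 0.024 percentage points had a p of 0.80 in an exact two-sided permutation test of the 6 labels, which cannot give less than 0.10. Without rRNA and 7SL RNA in the denominator the difference was 0.114 (p = 0.20, same exact permutation test). It turned negative without rpc-1 RNAi sample 1 (-0.0296), without vector control 2 (-0.0014) and on normalized counts.

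**Figure D4:**
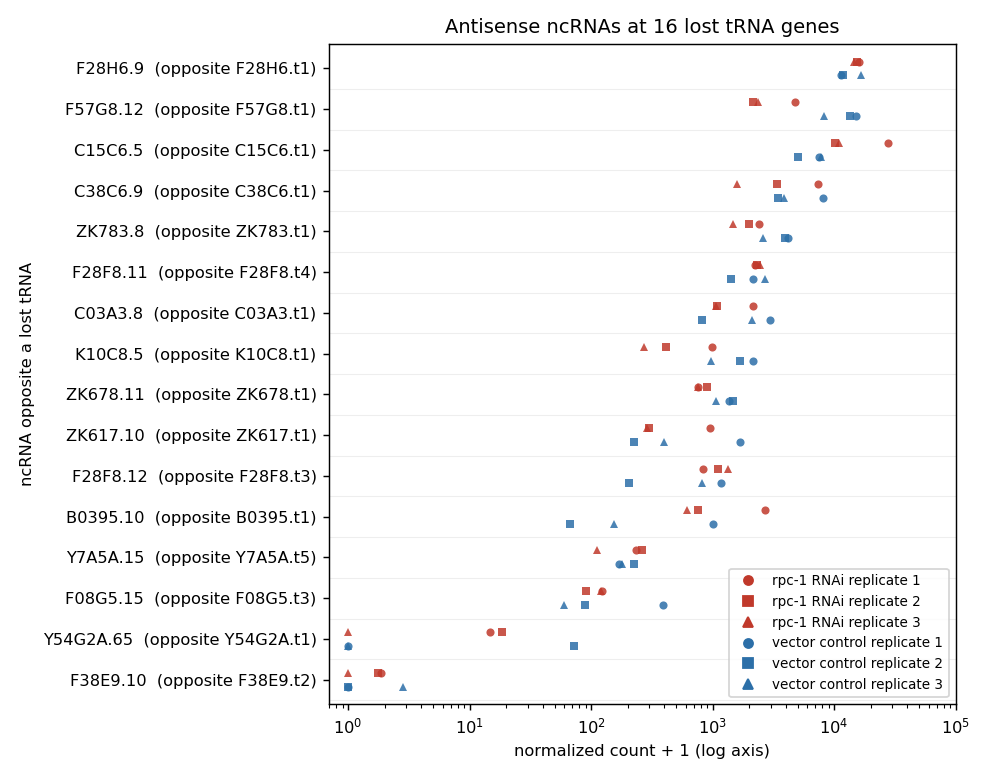
Normalized count plus 1 (horizontal log axis) of the 16 ncRNAs opposite a lost tRNA, with rpc-1 RNAi in red above vector control in blue and marker shapes for replicates. At 14 of the 16 the red points stay above 3 counts, they lie below the blue points at F57G8.12, ZK783.8 and ZK678.11, and above them at C15C6.5.

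When tRNA and opposite ncRNA were summed, rpc-1 RNAi and vector control overlapped at 9 of the 16 genes and the sum was lower without overlap at 7. The rule set the tRNA part of each sum near 0 in rpc-1 RNAi, which pushes the sum lower, so this is a description. The ncRNAs alone gave 3 lower and 1 higher without overlap, against 8.22% and 10.6% of all transcripts tested. At C15C6.t1 the sum was 32202, 13385 and 15418 counts in rpc-1 RNAi samples, against 16353, 2942 and 27819 in vector controls. At ZK678.t1 it was 886, 1190 and 1068 in rpc-1 RNAi samples, against 17094, 2191 and 5474 in vector controls. At F38E9.t2 it was 1, 1 and 0 in rpc-1 RNAi samples, against 70496, 6201 and 24420 in vector controls. At all 3 genes the RNAi sum came wholly from the opposite ncRNA, which held at least 13385 counts in each sample at C15C6.t1 and at most 1 at F38E9.t2. The 8 lost tRNAs with no listed ncRNA opposite them, F14B4.t1 and C52G5.t1 among them, carried 72.4% of the control counts of the group. Summing both strands left 9 tRNAs that met the rule, these 8 and F38E9.t2.

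Neighbouring tRNA genes were looked at because tRNA genes can lie close together. Within 10000 bases, 6 lost tRNAs had another listed tRNA or pseudogene nearest to them. These were 5 different genes, since F28F8.t1 was nearest to both F28F8.t3 and F28F8.t4, and those lost tRNAs lay 3842 bases apart. None of the 5 was lost, and DESeq2 called 2 lower and 0 higher, against 4.16% and 3.14% of all transcripts tested. The genes called lower were named after their values were seen. Y7A5A.t4, 3240 bases from Y7A5A.t5, had 1443, 2974 and 1356 counts in rpc-1 RNAi samples, against 31758, 6884 and 13027 in vector controls (log2 fold change -3.66 ± 0.74 SE, DESeq2 adjusted p = 1.82e-05). In edgeR the adjusted p of Y7A5A.t4 was 0.0123. C53C7.t2, 130 bases from C53C7.t1, had 29, 476 and 32 counts in rpc-1 RNAi samples, against 1750, 882 and 2369 in vector controls (log2 fold change -3.78 ± 1.08 SE, DESeq2 adjusted p = 0.0081). The log2 fold change of C53C7.t2 was -6.32 without rpc-1 RNAi sample 2 and -5.14 with the replicate block, while edgeR gave an adjusted p of 0.166, of 8.00e-05 with no filter on low counts and of 0.0499 with the replicate block. Both stayed above the rule's limit in every rpc-1 RNAi sample.

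At the edges of the rule, the lost tRNAs with the smallest control sums were ZK783.t1 (196), Y7A5A.t5 (206) and F11A1.t1 (298), each from control 3. The nearest tRNAs below the limit were T22C8.t1 (53, leucine TAA, from control 2), B0491.t1 (24) and C04C11.t1 (9). T22C8.t1 had 0 counts in all other samples, while the study probed it by northern blot and reported it as reduced. On the RNAi side, the members nearest to the limit had a highest count of 1, and the nearest tRNAs beyond it were C53C7.t3 with 4, F32B4.t1 with 5 and Y73F8A.t1 with 14. F32B4.t1 (cysteine GCA) had 0, 5 and 2 counts in rpc-1 RNAi samples, against 10717, 314 and 1867 in vector controls. DESeq2 gave a p for 19 of the 24 lost tRNAs, and edgeR's filter on low counts kept 12. The 5 without a DESeq2 p each had more than 4 counts in 1 sample only.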

How the data were processed

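Short RNA of 6 whole-worm samples (3 *rpc-1* RNAi, 3 vector control) was sequenced, and the deposited table holds estimated counts per transcript, whole numbers here. Per the study's methods, the authors trimmed reads with Cutadapt, assigned them with Salmon to WBcel235 RNAs, using the genome as a decoy, and imported transcripts under 300 bases with tximport. Salmon splits reads between similar transcripts, which makes single tRNA copies uncertain, and use of read strand is not given in the sources used here.

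The members and all lists were chosen with earlier results of these data known. Of 2526 transcripts, 2506 matched Ensembl release 115 by identifier, which gave coordinates (WBcel235, 1-based). Anticodons came from the study's annotation of 141 of the 143 nuclear tRNAs, which lists T14B4.t1 under AAG although its symbol reads TAA. An ncRNA was antisense when it overlapped a tRNA gene by at least 40 bases on the other strand.

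All transcripts were tested in R 4.3.3 by DESeq2 1.42.0 (Wald test), with group as the only term, median-of-ratios size factors and Benjamini-Hochberg adjusted p under 0.10. Alternatives were edgeR 4.0.16 (quasi-likelihood), the replicate block, other size factors and filters, 5% FDR and leaving out each sample. The tools were tested on simulated data. The titles give replicate numbers but do not say that samples were paired. Deviations of same-numbered samples correlated at 0.553, 0.204 and 0.396 over 817 transcripts, against -0.413 to 0.136 for differently numbered samples. Because these values come from the same data, the pairing used by the block is not established. Shares have Wilson 95% intervals, and floors are 3 counts. Summaries used Python 3.11.15, pandas 2.3.3, scipy 1.17.1 and matplotlib 3.10.9.

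Counts in every sample were given for the 10 lost tRNAs with the largest mean normalized control count, those named by the study, those with 3 or fewer counts in a control and those at the edges of the rule, and here also for the other members. Other transcripts were named when they were a tRNA past 10% FDR with a member's anticodon, or the antisense ncRNA that was largest or past 10% FDR. Planned searches for promoter boxes, terminators, base composition and the closest tRNA in sequence were not run, because no genome sequence was used here.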

Additional observations from a re-analysis of the deposited data

How the results depend on the processing

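The number of lost tRNAs lay between 19 and 26 under 5 of the planned settings and between 20 and 27 when any 1 sample was left out, but was 11 with at least 100 counts asked of each control. The setting that summed both strands, chosen after seeing the data, gave 9. The mean share of 52.9% of nuclear tRNA counts was 2.66% of all counts and 15.1% with antisense ncRNAs in the denominator, and 47.0 to 58.1% without any 1 control. The 4 lower tRNAs of shared anticodons were 10 with the replicate block, 3 with edgeR, 3 with snoRNA size factors, where C53C7.t3 had no adjusted p, and 4 to 7 without any 1 sample. The 2 higher ones were 8 with the replicate block and 7 with total-count size factors, and 1 to 4 without any 1 sample. Under settings chosen after seeing the data they were 1 (size factors from snoRNAs) and 5 (replicate block in edgeR). The 1 lower antisense ncRNA became 4 with the replicate block, 0 with edgeR and no filter, 0 at 5% FDR, 0 with snoRNA size factors and 2 with the replicate block in edgeR (the last 2 added), and 0 to 2 without any 1 sample. The 0 higher ones became 2 with the replicate block, 1 with total-count size factors, 1 with the added edgeR block, and 0 to 1 without any 1 sample. The difference in antisense share of 0.024 percentage points was -1124 on the scale of normalized counts (49172 in rpc-1 RNAi, 50296 in vector controls) and -0.0296 to 0.0553 without any 1 sample. With samples paired by number it kept its value, and an exact sign-flip test gave p = 0.75. Over all transcripts, DESeq2 with the replicate block called 14.9% lower and 14.1% higher. In DESeq2 the block changed the call of no other transcript named. In edgeR it gave 6 lower and 9 higher tRNAs of other anticodons, against 2 and 6 without it. The causes of these shifts were not tested.

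Over transcripts with a mean of at least 10, total-count size factors moved the median log2 fold change by 0.18 and snoRNA size factors by -0.39. Of all calls, 45 of 79 were lower by the design used in the report. The lower share was 46.1% of 128 with total-count size factors and 63.3% of 60 with snoRNA size factors. It was 54.3% of 127 with size factors that left out tRNAs, tRNA pseudogenes and the other Pol III classes tested. With the replicate block it was 51.4% of 278. The fold bounds are limited by the depth of the rpc-1 RNAi libraries, which sets their floor.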
